A study of Mus musculus with 12 samples.

Results

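Both arms of miR-21a, of miR-221 and of miR-222, 6 mature miRs from 3 hairpins, were followed in fetal mouse liver. They were chosen by name, as the entries mmu-miR-21a-5p, mmu-miR-21a-3p, mmu-miR-221-3p, mmu-miR-221-5p, mmu-miR-222-3p and mmu-miR-222-5p among the 1927 in the count table, of which 682 had a read in any library. The table also holds 35 entries that join miRs which reads could not tell apart, and none of the 6 was among them. miR-seq, the sequencing of RNAs as short as a mature miR, was done on livers of female E18.5 fetuses, close to birth. There were 5 WT fetuses and 7 that had inherited a deletion of Mir483 from the father (Mir483Pat-KO), with 1 library per fetus. The authors describe the WT fetuses as littermates of the Mir483Pat-KO fetuses. No agent was given. Mir483 lies within the imprinted gene Igf2. The deletion was constitutive, so it was present in every cell of the fetus and not in liver cells alone. The line came from C57BL/6N embryonic stem cells of 2 independent clones, F4 and E12, after Cre had removed the selection cassette in culture, and was kept by crosses to C57BL/6J. Neither the clone behind a given fetus nor its litter is in the labels. The tests treated the fetuses as independent, which fetuses of the same litter need not be.

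A miR hairpin is cut by Drosha and then Dicer into a short duplex. As a rule 1 strand, the guide, is loaded into Argonaute, and the other, the passenger, is mostly degraded, so a hairpin usually gives many reads from 1 arm (5p or 3p) and few from the other. Bases 2 to 8 of the guide, the seed, pair with the 3′ UTRs of target mRNAs. miR-21 is known for repressing the growth inhibitor Pdcd4, and it rises in regenerating liver, in fibrosis and in many tumours. miR-221 and miR-222 are transcribed together and are known for repressing the cell cycle inhibitor Cdkn1b and the receptor Kit.

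The mature sequences are shown because the seeds group the 6 miRs. They are those of RefSeq for the GRCm38.p6 assembly, written 5′ to 3′ with the seed in capitals, and 5 of the 6 miRs matched by name (miR-222-5p is named only).
miR-21a-5p: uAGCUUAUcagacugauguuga
miR-21a-3p: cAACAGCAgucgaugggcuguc
miR-221-3p: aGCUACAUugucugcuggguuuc
miR-221-5p: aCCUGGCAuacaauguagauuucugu
miR-222-3p: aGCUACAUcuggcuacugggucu
miR-221-3p and miR-222-3p share the seed GCUACAU. They begin with the same 8 bases, and 11 of their 23 positions hold the same base when the 2 are laid side by side from the 5′ end. Among the mouse miRs of that RefSeq set, the one other with this seed, miR-1928, had no read in any of the 12 libraries. The seed of miR-21a-5p, AGCUUAU, is shared in the set with miR-21c, which also had no read. The set is not complete, as it lacks miR-222-5p, and miRs missing from it were not searched for these seeds.

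Both loci are on the minus strand of GRCm38. The Mir21a hairpin, 92 bases at chr11:86584067-86584158, lies inside the protein-coding gene Vmp1, within the annotated UTR of its last exon and on the same strand. Its 5p arm is at chr11:86584120-86584141 and its 3p arm at chr11:86584082-86584103. Mir221 (chrX:19146294-19146388) and Mir222 (chrX:19146893-19146971) lie 504 bases apart on the X chromosome, in a span of 678 bases that no other annotated gene overlaps. The mature 3p miRs are at chrX:19146307-19146329 for miR-221-3p and chrX:19146901-19146923 for miR-222-3p. All fetuses were female, so sex does not differ between the genotypes.

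The authors counted the reads on each mature miR with miRge and deposited whole-number counts, 711810 to 1211160 per library in WT and 658665 to 921068 in Mir483Pat-KO. Levels are given as CPM, counts scaled to a common library total, after TMM scaling, with the SD over fetuses. A floor of 3 counts corresponded to 2.48 to 4.55 CPM of the plain library total, without TMM scaling. Such floors, like intervals on shares of reads, reflect counting error alone. The labelled genotypes held in all 12 libraries: miR-483-3p had 733 to 1281 reads in each WT library and 0 to 19 in each Mir483Pat-KO library, and miR-483-5p had 245 to 371 and 0 to 4. The hepatocyte miR miR-122-5p took 11.8% to 16.5% of the counts of each library and ranked 2 by mean level. WT libraries carried the index numbers 37 to 41 and Mir483Pat-KO libraries 42 to 48, so the order of the indexes and the genotype cannot be told apart by design.

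miR-21a-5p, the guide arm, was one of the most abundant miRs of the fetal liver. It ranked 9 of all miRs, at 20256 ± 1144 CPM over the 12 libraries (SD), and took 1.77% to 2.27% of each library. Its neighbours in the order of levels were miR-30e-5p above it, at 24903 ± 1473 CPM, and the joint entry of miR-101a-3p, miR-101b-3p and miR-101c below it, at 16892 ± 1130 CPM. A read counts a molecule of any length, so levels of miRs were not divided by length. How efficiently the kit captured each sequence was not measured, so levels of different miRs compare reads and not molecules.

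The other members were far less abundant. In order of mean CPM they were miR-221-3p (391 ± 33.7 CPM, rank 116), miR-21a-3p (266 ± 35.5 CPM, rank 138) and miR-222-3p (120.0 ± 18.4 CPM, rank 195). Each step of this order held in 12 of 12 libraries. The mean level of miR-21a-5p was 51.8 times that of miR-221-3p, which was 1.47 times that of miR-21a-3p, which was 2.21 times that of miR-222-3p. Across libraries the lowest level of miR-221-3p, 324 CPM, was below the highest of miR-21a-3p, 332 CPM, while the ranges of the other neighbours did not meet. Against all miRs, the levels of miR-21a-3p, miR-221-3p and miR-222-3p lay within their own SD of the miRs next to them. For miR-21a-3p these were miR-496a-3p (267 ± 43.3 CPM) and miR-369-5p (265 ± 21.1 CPM). For miR-221-3p they were miR-330-5p (409.9 ± 27.1 CPM) and miR-151-5p (374 ± 20.1 CPM), and for miR-222-3p miR-425-3p (120.3 ± 18.6 CPM) and miR-872-5p (118 ± 12.1 CPM).

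The 5p arms of the X-linked pair were nearly absent. miR-221-5p had 8 reads in WT replicate 1, 3 in Mir483Pat-KO replicate 4 and 0 in the other 10 libraries. miR-222-5p had 9 reads in WT replicate 3, 9 each in Mir483Pat-KO replicates 3 and 4, 8 in replicate 6 and 0 in the other 8 libraries. Of all reads on each hairpin's 2 arms, the 5p arm took 0.276% in miR-221 (11 of 3985 reads, 95% exact interval 0.138% to 0.493%) and 2.77% in miR-222 (35 of 1265 reads, 1.93% to 3.83%), pooled over the libraries. These intervals treat reads as independent, while the 5p reads fell in only 2 libraries for miR-221 and 4 for miR-222. They leave out the spread between libraries and are too narrow to describe it. No entry of the table is 1 and the lowest above 0 is 2, so a 0 may stand for fewer reads than the authors' counting reports. Both 5p arms were left out of the tests by the filter on low counts, which kept 4 of the 6 members, and no difference between genotypes was detectable for them at this depth.

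**Figure D1:**
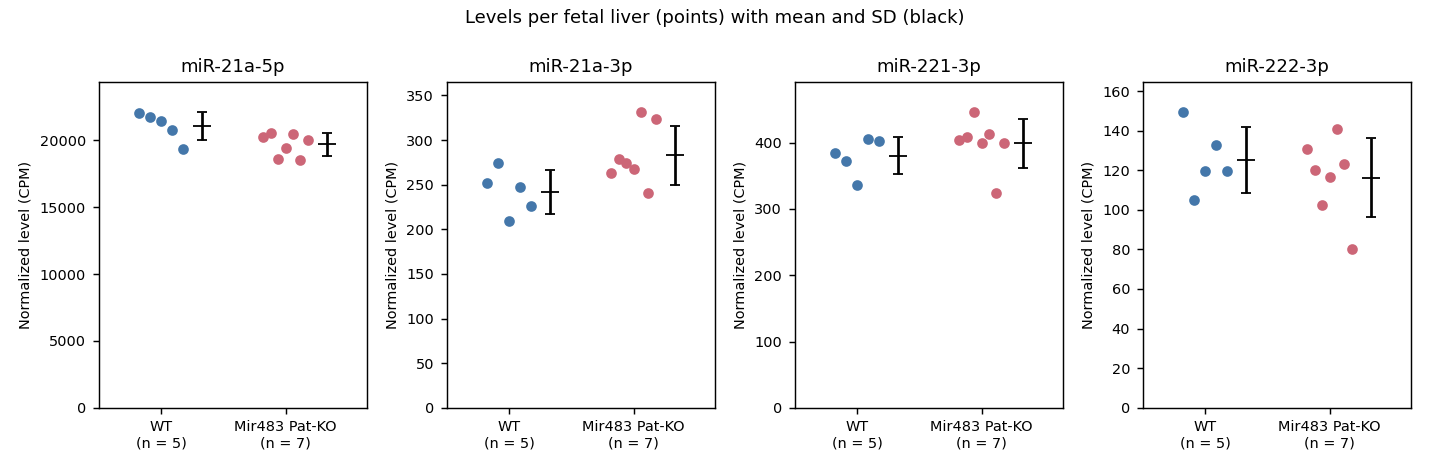
Levels (TMM-scaled CPM, linear axes from 0) of the 4 members that passed the filter, 1 point per fetal liver for 5 WT and 7 Mir483Pat-KO fetuses, with the mean and SD in black. The genotypes overlap in each panel, with miR-21a-5p lower on average in Mir483Pat-KO (19683 against 21058 CPM) and miR-21a-3p higher (283 against 242 CPM).

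Whether deletion of Mir483 altered the level of these miRs was asked with edgeR's quasi-likelihood test over all 388 miRs that passed the filter. None of the 4 members tested was called at an adjusted p under 0.05, against 8 of 388 miRs (2.06%). By unadjusted p under 0.05, 1 of the 4 passed, miR-21a-3p, against 68 of 388 (17.5%). In TMM-scaled level the 2 genotypes overlapped in each of the 4, whereas they did not overlap in 11 of 388 miRs (2.84%). In bulk liver, fewer cells of a type and less of a miR per cell cannot be told apart.

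miR-21a-5p measured 22015, 21708, 21468, 20739 and 19359 CPM in WT replicates 1 to 5. In Mir483Pat-KO the lowest of the 7 livers was at 18497, the median at 20034 and the highest at 20528 CPM. The 4 highest values were all WT, and 2 of 7 Mir483Pat-KO livers lay below every WT liver. The mean was 21058 ± 1060 CPM in WT (SD, n = 5) and 19683 ± 856 CPM in Mir483Pat-KO (SD, n = 7). That is a log2 fold change of -0.10 (SE 0.049, 95% interval -0.20 to 0.01), which did not pass the test (edgeR, adjusted p = 0.351). The interval corresponds to a level in Mir483Pat-KO of 0.869 to 1.00 times that in WT. The overlap depended on the scaling. As a share of each library's counts, miR-21a-5p took 2.06% to 2.27% in WT and 1.77% to 2.01% in Mir483Pat-KO. How many of all miRs separated in this way was not counted, so the separation cannot be read as particular to miR-21a-5p. With library size alone the log2 fold change was -0.16 (edgeR, adjusted p = 0.0768), where the median of all miRs was -0.06. Counting error was small beside the spread between fetuses, at a coefficient of variation of 0.772% against 5.03% in WT and 4.35% in Mir483Pat-KO.

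miR-21a-3p, the passenger arm of the same hairpin, measured 252, 274, 210, 247 and 227 CPM in the 5 WT livers. In Mir483Pat-KO the values ran from 241 to 332 CPM with a median of 274. Here the higher values were in Mir483Pat-KO, where 4 of 7 livers exceeded every WT liver. The means were 242 ± 24.7 CPM in WT and 283 ± 32.9 CPM in Mir483Pat-KO (SD, n = 5 and 7). The log2 fold change was 0.22 (SE 0.093, 95% interval 0.02 to 0.42), and it did not pass the adjusted threshold (edgeR, adjusted p = 0.218). These values rest on 156 to 293 reads per library, for which counting alone gives a coefficient of variation of 6.76%.

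miR-221-3p, the more abundant guide of the X-linked pair, measured 385, 373, 336, 405 and 402 CPM in WT. In Mir483Pat-KO the lowest was 324, the median 404 and the highest 446 CPM. The groups overlapped at both ends, with 3 Mir483Pat-KO livers above every WT liver and 1 below. The means were 380.1 ± 28.0 and 399 ± 37.1 CPM (SD, n = 5 and 7), a log2 fold change of 0.07 (SE 0.080, 95% interval -0.10 to 0.24; edgeR, adjusted p = 0.736). The interval leaves room for a fall to 0.933 times or a rise to 1.18 times the WT level.

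miR-222-3p, which carries the same seed, measured 149, 105, 120, 133 and 120 CPM in WT. In Mir483Pat-KO it ran from 80.2 to 141 CPM with a median of 120.0 CPM. The medians of the genotypes were thus alike, and 2 of 7 Mir483Pat-KO livers lay below every WT liver. The means were 125 ± 16.6 and 116 ± 19.9 CPM, a log2 fold change of -0.11 (SE 0.13, 95% interval -0.39 to 0.16; edgeR, adjusted p = 0.736). It was the least precisely measured of the 4, with 59 to 174 reads per library.

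Added together, the 2 guides of the GCUACAU seed came to 505 ± 36.7 CPM in WT and 516 ± 38.95 CPM in Mir483Pat-KO. The ranges were 455 to 538 and 447 to 554 CPM. The mean of miR-21a-5p was 41.7 times this sum in WT and 38.2 times in Mir483Pat-KO, so miR-21a-5p supplied by far the most reads of the members in both genotypes.

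The arms of miR-21a were then compared with each other within each library, a ratio that needs no scaling between libraries. There were 87.5, 79.2, 102, 84.0 and 85.4 reads of miR-21a-5p for each read of miR-21a-3p in the 5 WT livers. In Mir483Pat-KO the ratio was 61.6 at its lowest, 72.7 at the median and 77.2 at its highest. Each of the 7 Mir483Pat-KO livers lay below each of the 5 WT livers. Seen from the passenger arm, miR-21a-3p made up 0.967% to 1.25% of the hairpin's reads in WT and 1.28% to 1.60% in Mir483Pat-KO.

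On the log2 scale the arm ratio was 6.45 ± 0.14 in WT and 6.12 ± 0.14 in Mir483Pat-KO (SD, n = 5 and 7). The difference was -0.32 (limma, SE 0.086, 95% interval -0.51 to -0.14), a ratio 0.800 times that of WT. By an exact permutation test of the library labels (two-sided), p was 0.00253. In the limma fit over all 89 hairpins with a mean of at least 10 counts on each arm the unadjusted p was 0.00250 and the adjusted p 0.0640, so the difference did not pass the adjusted threshold. It was on the other side of the threshold when both arms had to average at least 50 counts (adjusted p = 0.0318) and with edgeR's fold changes of the arms (adjusted p = 0.0227). With the library index as a covariate the difference was -0.17 (SE 0.17, limma adjusted p = 0.950). Within the lower range of animal numbers alone, 4 WT and 4 Mir483Pat-KO fetuses, it was -0.27 (limma adjusted p = 0.216). The upper range held 1 WT and 3 Mir483Pat-KO fetuses, so the ranges were not balanced between genotypes. With the range as a factor the difference was -0.30 (limma adjusted p = 0.0898). The counting SD of the log2 ratio averaged 0.098 per library, against 0.14 between fetuses of a genotype.

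**Figure D2:**
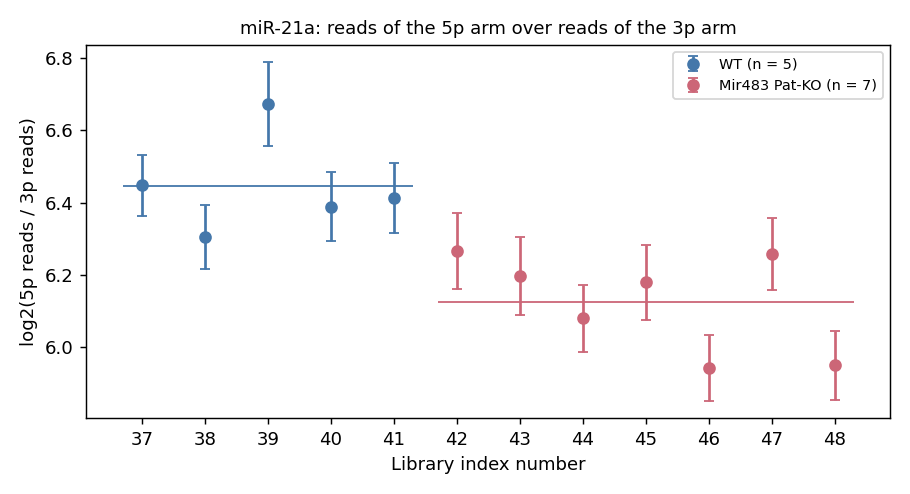
Log2 of miR-21a-5p reads over miR-21a-3p reads in each library, against the library index number; error bars are the counting SD and horizontal lines the genotype means. The WT libraries (index 37 to 41) run from 6.31 to 6.67 and the Mir483Pat-KO libraries (index 42 to 48) from 5.94 to 6.27, so the genotypes do not meet, and the index order separates them too.

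Among the 89 hairpins, miR-21a had the lowest p after miR-154 and miR-136, and 24 hairpins had a larger difference in arm ratio. Hairpins whose genotypes did not overlap in arm ratio numbered 2 of 89 (2.25%), miR-21a and miR-154. The hairpins called at an adjusted p under 0.05 also numbered 2 (2.25%), and 18 of 89 (20.2%) passed an unadjusted p under 0.05. The ones called were miR-154, where the 5p to 3p log2 ratio went from 0.72 ± 0.24 in WT to 0.03 ± 0.22 in Mir483Pat-KO (difference -0.70, limma adjusted p = 0.0125), and miR-136, where it went from -0.42 ± 0.17 to -0.01 ± 0.18 (difference 0.41, limma adjusted p = 0.0416). Those are hairpins of nearly even arms, and miR-21a ranked 13 of the 89 for uneven arms. The share of the rarer arm was higher in Mir483Pat-KO in 41 hairpins and lower in 48, and the median difference of the 5p to 3p log2 ratio was -0.03, so the arms did not shift in 1 direction across the hairpins.

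**Figure D3:**
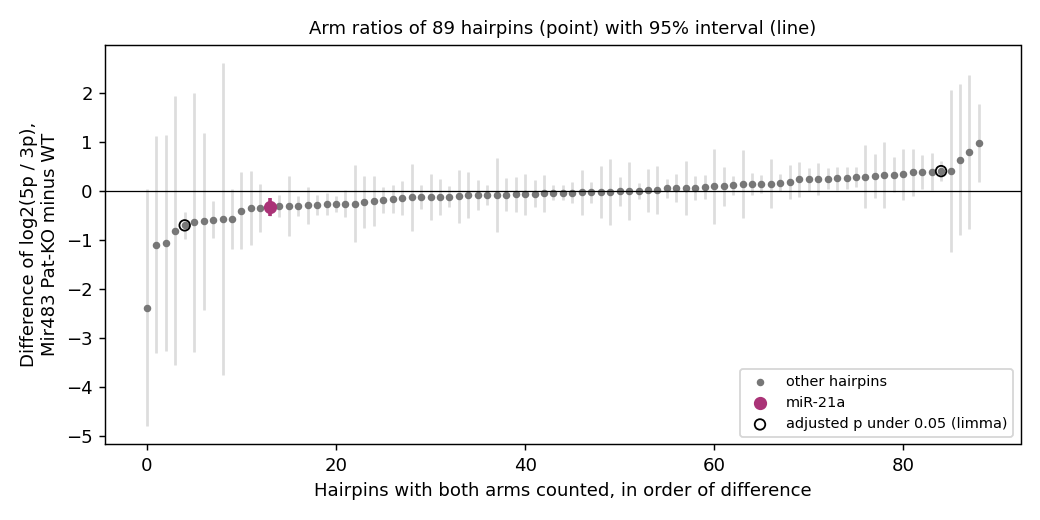
Difference between genotypes in log2(5p reads / 3p reads) for each of 89 hairpins, ordered by size, with the 95% interval of the limma fit. miR-21a (purple, -0.32) is not among the largest differences, and its interval, -0.51 to -0.14, is narrow beside those of many of them; the 2 hairpins called, miR-154 and miR-136, are ringed.

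miR-221-3p and miR-222-3p come from neighbouring hairpins, and their ratio was also taken within each library. WT livers had 2.57, 3.55, 2.81, 3.06 and 3.35 reads of miR-221-3p per read of miR-222-3p. In Mir483Pat-KO the ratio was lowest at 2.62, had a median of 3.40 and was highest at 4.98. miR-221-3p had more reads in 12 of 12 libraries, and the genotypes overlapped, with all but 2 of the Mir483Pat-KO livers inside the WT range. On the log2 scale the means were 1.60 ± 0.19 in WT and 1.79 ± 0.32 in Mir483Pat-KO (SD, n = 5 and 7). The difference of 0.19 (SE 0.16, 95% interval -0.18 to 0.55) was not distinguished from 0 (exact permutation test, two-sided, p = 0.283, where the smallest possible p is 0.00126). The counting SD averaged 0.167 per library, against 0.19 between the WT fetuses and 0.32 between the Mir483Pat-KO fetuses.

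**Figure D4:**
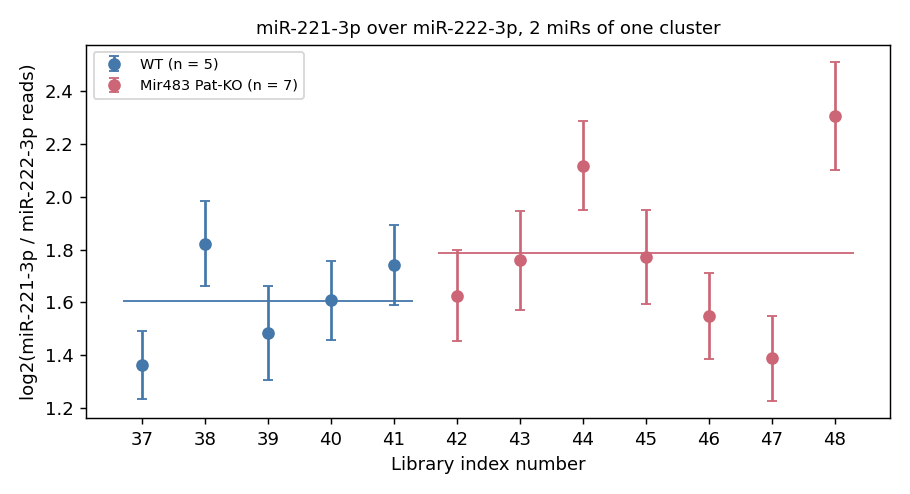
Log2 of miR-221-3p reads over miR-222-3p reads in each library, against the library index number, with the counting SD as error bars and the genotype means as lines. WT libraries run from 1.36 to 1.82; 5 of the 7 Mir483Pat-KO libraries lie in that range, and those of replicates 3 (2.12) and 7 (2.31) lie above it.

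How the members varied among fetuses was described by correlating log2 levels centred within genotype over the 12 libraries. These are descriptions: the libraries share a scaling step and a count total, and no test was made. The arms of miR-21a correlated at r = 0.50. This was not particular to the hairpin, since miR-21a-3p and miR-221-3p, from different chromosomes, correlated at r = 0.48. The other pairs were miR-21a-5p with miR-221-3p (r = 0.03) and with miR-222-3p (r = 0.17), and miR-21a-3p with miR-222-3p (r = -0.21). miR-221-3p and miR-222-3p, the neighbours on the X chromosome, showed no correlation (r = -0.04). Counting alone gives coefficients of variation of 5.56% and 10.1% for them. Their spread between fetuses was 7.36% and 13.3% in WT and 9.28% and 17.1% in Mir483Pat-KO. With so much counting error this r cannot decide whether the 2 vary together. Against the 225 other miRs of mean log2 CPM of at least 6, miR-21a-5p was most like miR-98-5p (r = 0.71), miR-340-5p (r = 0.70) and let-7f-5p (r = 0.68). For miR-21a-3p the most alike were miR-140-3p (r = 0.78), miR-296-3p (r = 0.76) and miR-382-3p (r = 0.75). For miR-221-3p they were miR-675-3p (r = 0.83), miR-382-3p (r = 0.68) and miR-872-3p (r = 0.67), and for miR-222-3p miR-22-3p, miR-98-3p (both r = 0.65) and miR-181b-5p (r = 0.63). No miR was among the 3 most alike for both members of a hairpin or cluster.

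Other miRs known for promoting or restraining cell growth were listed beside the members. The growth-promoting list held 11 miRs of the miR-17-92 and miR-106b-25 clusters with miR-155-5p and miR-210-3p. Of these, 10 were tested (miR-155-5p did not pass the filter) and none was called by edgeR, against 8 of all 388 miRs (2.06%). At an unadjusted p under 0.05, 1 of the 10 passed, against 68 of 388 (17.5%). Log2 fold changes were above 0 in 2 and below 0 in 8, with a median of -0.03, where all 388 miRs had 195 above and 193 below 0 and a median of 0.00. The highest were miR-93-5p (0.11) and miR-92a-3p (0.10). The lowest were miR-210-3p, a miR of the hypoxia response, at -0.25 (edgeR adjusted p = 0.253), and miR-19b-3p at -0.16. None of these 4 passed the adjusted threshold.

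The growth-restraining list held 21 miRs, among them the let-7 family, the miR-15/16 family and miR-26, of which 20 were tested (miR-195a-5p did not pass the filter). It had 1 called, let-7f-5p, which fell from 14840 ± 818 to 12398 ± 900.0 CPM (SD, n = 5 and 7), a log2 fold change of -0.26 (edgeR adjusted p = 0.0309). let-7f-5p is a member of a family that represses Ras and Hmga2 mRNAs. Reads of near-identical let-7 miRs may be shared out by the counting, so its level on its own is uncertain. Its call was lost without WT replicate 1 or 3, and without Mir483Pat-KO replicate 4, 5, 6 or 7. Over all miRs, 8 of 388 (2.06%) were called. At an unadjusted p under 0.05, 2 of the 20 were higher and 6 lower, against 37 higher and 31 lower of all 388 (17.5% together). The log2 fold changes were above 0 in 7 and below 0 in 13, with a median of -0.09, against 195 above and 193 below 0 and a median of 0.00 over all miRs. The lowest was let-7d-5p (-0.31, edgeR adjusted p = 0.0761), and the highest among abundant members were miR-15a-5p (0.29, edgeR adjusted p = 0.0988) and miR-16-5p (0.05). The lists were drawn up with earlier results of these data known and are not independent evidence of a direction.

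**Figure D5:**
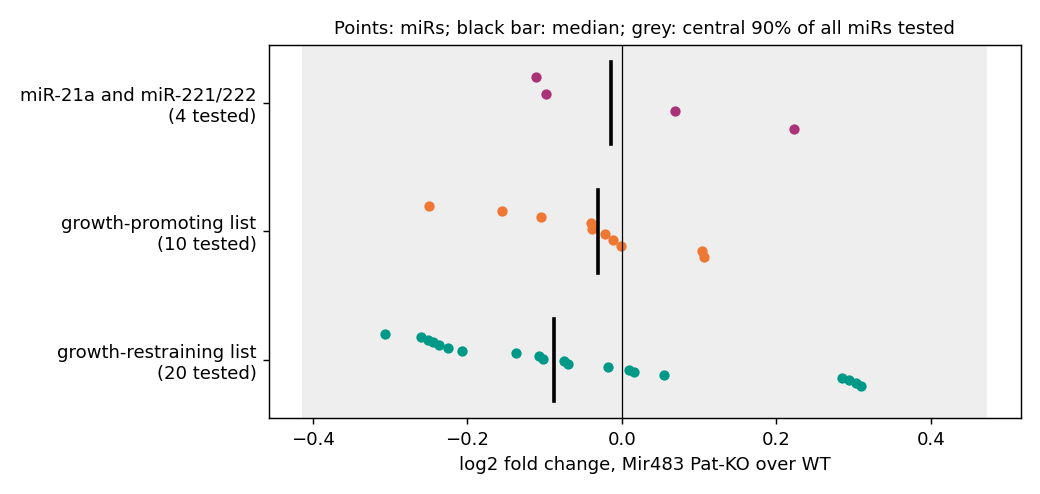
Log2 fold changes (Mir483Pat-KO over WT, edgeR) of the 4 members tested, 10 growth-promoting and 20 growth-restraining miRs; each point is a miR, black bars are medians, and the grey band holds the central 90% of all 388 miRs, from -0.41 to 0.47. All 3 groups lie within the band, with medians close to 0.

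Marker miRs of cell types in fetal liver were summed per library beside these results, since miR-21a, miR-221 and miR-222 are made by several cell types. None of the markers tested was called by edgeR, against 8 of 388 miRs (2.06%). The erythroid markers, led by miR-451a and miR-486a-5p, had log2 fold changes above 0 in 4 of 4 entries tested (median 0.19, summed level 23848 to 31974 CPM in WT and 25913 to 37810 CPM in Mir483Pat-KO). White blood cell markers were above 0 in 3 of 3 tested (median 0.14, 11032 to 14582 and 13119 to 14751 CPM), and miR-150-5p did not pass the filter. The 2 endothelial entries, miR-126a-3p and miR-126a-5p, were below 0 (median -0.19, 953 to 1261 and 725 to 1221 CPM). The 4 hepatocyte markers had a median of -0.02, the 5 stellate and smooth muscle markers -0.07 and the 5 bile duct epithelial markers 0.12. At an unadjusted p under 0.05, which 17.5% of all miRs passed, the erythroid miR-144-3p and the joint entry of miR-486a-5p and miR-486b-5p were higher in Mir483Pat-KO (log2 fold changes 0.34 and 0.25). By the same measure the joint entry of miR-199a-3p and miR-199b-3p of the stellate list (0.47) and miR-200a-3p of the bile duct list (0.39) were higher and miR-429-3p of the bile duct list (-0.29) was lower. The part of any of these cell types in the members' levels or in the arm ratio of miR-21a was not tested.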

How the data were processed

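Small RNA libraries were made by the authors from 1 µg of total RNA per liver with the TruSeq Small RNA kit and sequenced on a NovaSeq6000, and reads were counted with miRge. The deposited values are whole-number counts of reads per mature miR and library, neither normalized nor pooled. The miR reference, adapter trimming and filters of miRge are not given in the sources used here. The submitters' processing notes name GRCm38.

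Genotypes and replicate numbers came from the sample labels, and columns were matched by the animal number in their names. Each library is a separate fetus. The members and the marker and growth lists were chosen with earlier results of these data known. miRs were kept by filterByExpr (minimum count 10, minimum total count 15), scaled by TMM and tested in edgeR 4.0.16 (R 4.3.3) with glmQLFit (legacy = TRUE) and glmQLFTest. The design held genotype and no covariate, and p-values were adjusted by Benjamini-Hochberg over all miRs tested. The study's methods name the same test. Arm ratios, log2((5p + 0.5)/(3p + 0.5)), were fitted by limma 3.58.1 with trend over the 89 hairpins of at least 10 mean counts per arm, out of 718 hairpins with both arms listed. The ratio of miR-221-3p to miR-222-3p was compared by a two-sided exact permutation test. The 2 ratios of members are the only ones tested.

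Named beside the 6 members were: the 3 other miRs most alike by Pearson r for each member of mean log2 CPM of at least 6; the miRs next above and below in level; in each growth list the 2 that rose most and 2 that fell most of those with mean log2 CPM of at least 8, and any called; other hairpins called for their arm ratio; miR-122-5p; and both arms of miR-483. Marker miRs of cell types, the miRs left out by the filter and miRs that share a member's seed fall outside this rule and were named after their values were seen.

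Alternatives were other scalings (RLE, upper quartile, library size alone), filters and pseudocounts, edgeR's newer dispersion, DESeq2 1.42.0, limma-voom, a replicate block, the animal-number range, the library index as a covariate, and leaving out each library. The lower animal-number range alone was added after the data were seen. Sequences are from RefSeq (GRCm38.p6) and gene overlaps from GENCODE's annotation of GRCm38. The scripts were tested on simulated data. Plots were drawn with matplotlib 3.10.9.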

Additional observations from a re-analysis of the deposited data

Results flagged for a closer look

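The level of miR-221-3p in Mir483Pat-KO replicate 6, 324 CPM, lay apart from the other 6 libraries of its genotype, which ran from 399 to 446 CPM. Its gap to the next library was 0.617 of the group's range, past Dixon's 95% critical value for 7 samples. Of 12 such groups examined this was 1, and chance passes about 1 in 20. Without this library the log2 fold change of miR-221-3p was 0.11 in place of 0.07 and the log2 ratio of miR-221-3p to miR-222-3p differed by 0.25 in place of 0.19 (exact permutation p = 0.143); neither passed its threshold.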

How the results depend on the processing

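None of the 4 members tested was called under any of the 13 alternatives or without any of the 12 libraries. With the library index as a covariate, the log2 fold changes of miR-21a-5p (0.0050) and miR-222-3p (0.15) and the log2 ratio of miR-221-3p to miR-222-3p (-0.016, SE 0.32) turned direction; the index runs with genotype, so index and genotype cannot be told apart. Leaving out 1 library at a time, log2 fold changes ranged from -0.13 to -0.08 for miR-21a-5p, 0.15 to 0.26 for miR-21a-3p, 0.00 (without WT replicate 3) to 0.11 for miR-221-3p and -0.19 to -0.04 for miR-222-3p. In the lower animal-number range alone, log2 fold changes were -0.14 for miR-21a-5p, 0.12 for miR-21a-3p, 0.13 for miR-221-3p and -0.13 for miR-222-3p. The arm ratio difference of miR-21a kept its direction throughout. It was past the threshold with at least 50 mean counts per arm (-0.32, where fewer hairpins are adjusted over) and with edgeR's fold changes of the arms (-0.32; the cause was not tested). It was -0.36 to -0.26 without 1 library (limma adjusted p 0.0599 to 0.143, called in none of 12). The difference in the ratio of miR-221-3p to miR-222-3p was 0.10 to 0.25 without 1 library (exact permutation p 0.143 to 0.498).

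Growth-restraining miRs called numbered 1, against 2 with RLE scaling, 4 with library size alone and 0 with the replicate block, and 0 to 2 without 1 library. Growth-promoting miRs called numbered 0, or 1 without WT replicate 1, a range of 0 to 1. Library size alone moved the median log2 fold change of all miRs from 0.00 to -0.06. All miRs called numbered 8, but 14 with library size alone, 3 with the replicate block, 5 with the animal-number range, 3 with the index, 27 by DESeq2, 2 in the lower range alone and 3 to 12 without 1 library. Hairpins called for their arm ratio numbered 2, but 6 at 50 mean counts, 3 by edgeR's fold changes, 1 at 3 mean counts, 1 with the animal-number range, 0 with the block, the index or the lower range alone, and 0 to 4 without 1 library.

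Replicate numbers are shared between genotypes but belong to different animals. Deviations of same-numbered libraries over 229 miRs correlated at -0.08 to 0.38, and 2 of 5 numbers were their own best match. The labels name no pairs, and a check over 5 numbers cannot decide whether the numbers pair the fetuses. With the replicate block the arm ratio difference of miR-21a was -0.31 (limma adjusted p = 0.327) and the difference in the ratio of miR-221-3p to miR-222-3p 0.16. The latter rests on 5 same-number differences, leaves out Mir483Pat-KO replicates 6 and 7 and could not give an exact permutation p below 0.0625, so it bears on no call.

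Depth left the 5p arms of miR-221 and miR-222 untested, and counting alone gives coefficients of variation of 10.1% for miR-222-3p, 6.76% for miR-21a-3p and 5.56% for miR-221-3p.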
